A study of Mus musculus with 6 samples.

Results

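The peptide transport and loading complex carries peptides into the endoplasmic reticulum (ER) and fits them onto MHC class I molecules. It was described here through 8 genes chosen by name, Tap1, Tap2, Tapbp, Tapbpl, Erap1, Calr, Canx and Pdia3, of 15634 genes listed. They were chosen with earlier results of these data known. All 8 were measured and all 8 passed the filter on low counts. The cells were mesenchymal stem cells (MSCs, adherent stromal cells) grown from the bone marrow of C57BL/6J mice, all wild type. Control stands for 3 RNA-seq libraries of untreated cells. TNF stands for 3 libraries of cells given TNF-α, an inflammatory cytokine, at 10 ng/mL for 24 h. Whether a group's libraries are separate cultures or animals is not stated in the labels. The p-values therefore reflect the spread among these samples alone, and that spread may be technical.

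TAP1 and TAP2 are ABC transporters that pair to form the pump moving cytosolic peptides into the ER. Tapasin, encoded by Tapbp, bridges the pump to empty class I molecules and edits which peptides they keep, and the related protein TAPBPR, encoded by Tapbpl, edits peptides away from the pump. ERAP1 trims peptides in the ER to the length that class I molecules hold. Calreticulin (Calr) and calnexin (Canx) are lectin chaperones that hold newly made glycoproteins, and ERp57 (Pdia3) is a disulphide isomerase that works with both and is linked to tapasin in the loading complex. The first 5 genes are taken here as dedicated to class I presentation, leaving any other roles aside, whereas the last 3 serve glycoprotein folding in general. The values below are ordered by this division.

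Promoter letters are shown first. Among the windows searched, only 3 on each side of this division, some motifs occurred on one side only. RefSeq windows (build GRCm38.p6, 250 bases before to 50 after a start site) matched 6 of the 8 genes, and Tap2 and Tapbpl were unmatched. Tap1 is read from the same stretch of chromosome 17 as Psmb9, an immunoproteasome subunit that lies head to head with it. The 225 bases between the start sites, at chr17:34187331-34187555 on the plus strand and written towards Tap1, hold 1 GC box (GGGCGG on either strand, in capitals), a motif found in 35.7% of 32851 windows.

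Psmb9 to Tap1: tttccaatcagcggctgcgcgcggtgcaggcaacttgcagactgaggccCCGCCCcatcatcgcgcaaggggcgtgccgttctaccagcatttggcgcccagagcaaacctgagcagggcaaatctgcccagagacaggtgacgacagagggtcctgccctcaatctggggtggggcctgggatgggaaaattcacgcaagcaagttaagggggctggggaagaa

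Letters of an interferon regulatory factor (IRF) type site (GAAA, any 2 bases, then GAAA, on either strand, in capitals below) were found in Erap1 alone among the 6 genes, at its start site, and in 3.44% of all windows. They were also found in 5 of 20 other class I pathway genes that had a window. Of 29 other ER chaperone and quality control genes with a window, 2 held them. The Erap1 stretch covers chr13:74639829-74639858 on the plus strand.

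Erap1: ccctgccggtccaccttcacTTTCACTTTC

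Letters of the ER stress response element (CCAAT, any 9 bases, then CCACG, on either strand, in capitals below; it contains a CCAAT box) were found in Calr and Canx, and in 0.119% of all windows (39 of 32851). They were also found in 6 of 29 other ER chaperone and quality control genes that had a window. The stretches are chr8:84847055-84847114 for Calr and chr11:50325780-50325839 for Canx, both on the minus strand.

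Calr: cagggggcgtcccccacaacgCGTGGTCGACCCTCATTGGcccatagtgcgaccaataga

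Canx: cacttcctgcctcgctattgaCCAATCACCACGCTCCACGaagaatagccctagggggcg

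Loose NF-kB type letters (GGG, any 5 bases, then CC, on either strand) occur in 50.8% of windows. They were in the windows of Tap1, Calr and Pdia3. STAT-type letters (TTCNNNGAA on either strand, in 8.30% of windows) were in none of the 6. These matches describe letters in a short window, not sites that were measured.

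Library totals ran from 45629973 to 77142418 counts. Counts of the 18S ribosomal RNA gene took 19.4% of TNF library 2 and between 1.10% and 3.55% of the other libraries, and Control library 2 had the highest total and the highest share of mitochondrial mRNA (4.45%). Of 12 markers of MSCs and marrow stroma all 12 were measured, with Prrx1 at 477 ± 40.5 CPM in Control (SD, n = 3), but Lepr and Thy1 were low, at 0.475 ± 0.197 and 4.78 ± 1.35 CPM. The summed level of the 12 was 18697 to 23586 CPM in Control and 11894 to 12521 CPM in TNF; 3 of them were called higher (Pdgfra, Cd44 and Lepr) and 3 lower (Col1a1, Col1a2 and Thy1). Most of the sum was Col1a1 (8204 ± 1686 CPM in Control, 3938 ± 109 in TNF) and Col1a2 (9647 ± 751 and 5865 ± 224 CPM). All 16 macrophage markers were measured too, and none was at 0. In TNF 3 were called higher (Csf1r, Cybb and Cd14) and 6 lower (Cd68, Cx3cr1, C1qa, C1qb, C1qc and Mrc1). Over all tested genes 16% were called higher and 16.4% lower. The summed level of the 16 was 2355 to 3509 CPM in Control and 2256 to 2365 CPM in TNF. Lyz2 was its largest part (1334 ± 402 and 925 ± 72.8 CPM, not called). Largest by fold in each direction were Cybb (82.2 ± 18.5 to 394 ± 44.8 CPM) and Cx3cr1 (25.3 ± 1.11 to 6.50 ± 1.12 CPM). Of 6 dendritic cell markers 2 were measured (Itgax and Zbtb46), both higher in TNF, with a summed level of 3.04 to 4.97 CPM in Control and 10.3 to 13.2 CPM in TNF. Of 5 endothelial markers 1 was measured (Kdr, under 1 CPM in every library), and of 6 lymphocyte markers 0. In bulk RNA, more cells of a type and more RNA per cell cannot be told apart, and the part of macrophages or dendritic cells in the changes below was not tested.

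The calls in TNF against Control followed the division by role, which was made with earlier results of these data known. Tap1, Tap2, Tapbp, Tapbpl and Erap1 rose between 2.04-fold and 3.39-fold, whereas Calr, Canx and Pdia3 were not called. The quasi-likelihood test of edgeR, with p-values adjusted by Benjamini-Hochberg over 15547 tested genes, called 5 of the 8 higher and 0 lower. Among all tested genes 16% were called higher, 16.4% lower and 32.4% in either direction. By point estimate 5.81% were called higher by at least 2-fold, as all 5 were. The 95% intervals of Tapbp and Erap1 reached below 2-fold, starting at 1.96 and 1.71. The count of 0 lower was also 0 at an unadjusted p under 0.05, with DESeq2 and with limma-voom. CPM (counts scaled to library size with TMM factors) did not overlap between the groups for the 5 that rose and overlapped for the other 3. Of all tested genes 48.7% did not overlap, 24% with TNF higher and 24.7% with TNF lower. The median log2 fold change of the 8 was 1.16, against -0.0046 over all tested genes. Because the 8 genes were chosen with earlier results known, these comparisons with all genes are no test of the set.

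**Figure D1:**
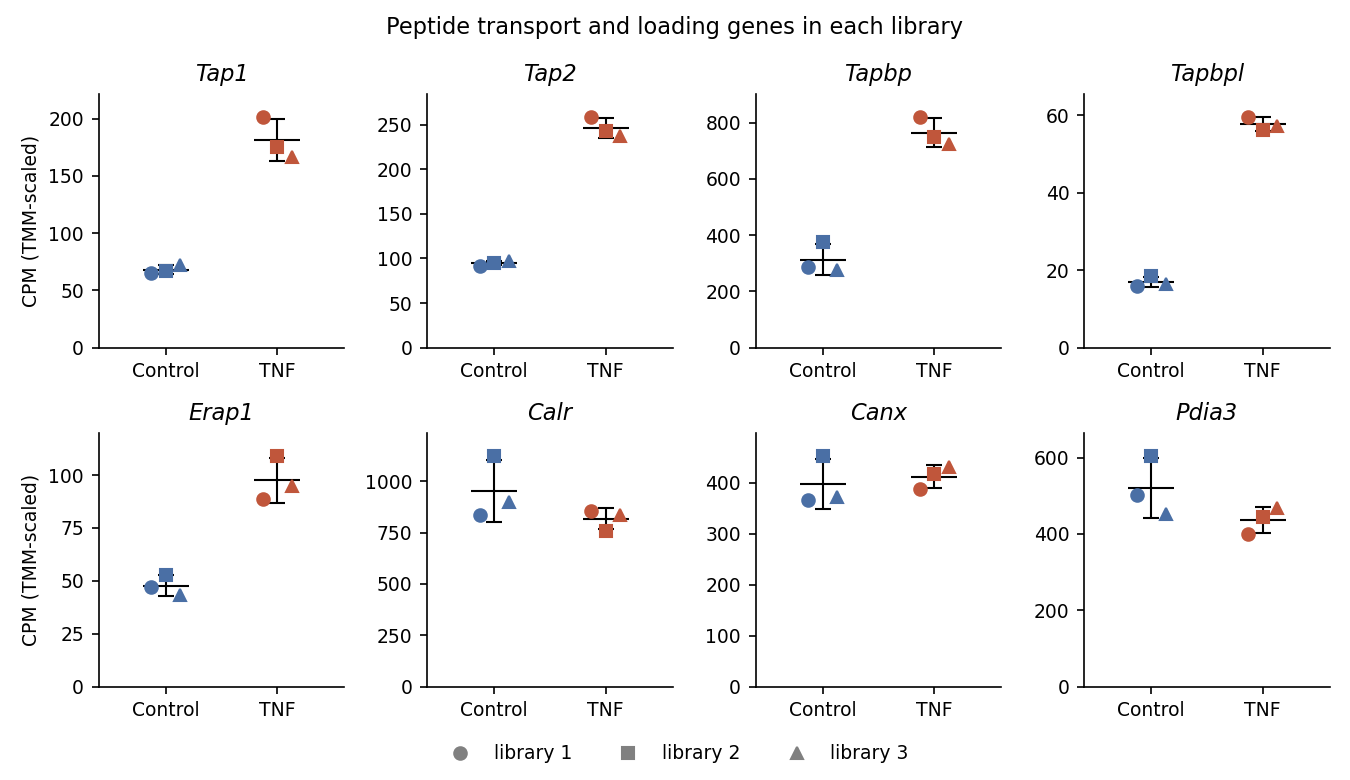
CPM of each gene (y axis, from 0) in the 3 Control and 3 TNF libraries (x axis); each point is 1 library, the horizontal bar is the mean and the whiskers are ± 1 SD. Tap1, Tap2, Tapbp, Tapbpl and Erap1 lie higher in all 3 TNF libraries than in any Control library, whereas the points of Calr, Canx and Pdia3 overlap.

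The transporter subunits rose side by side. Tap1 had 65.2, 67.1 and 72.2 CPM in Control libraries 1, 2 and 3 and 202, 175 and 166 CPM in TNF libraries 1, 2 and 3. Every TNF value was above every Control value, with the widest spread inside the TNF group. The fold was 2.66 (log2 fold change 1.41 ± 0.10 SE, adjusted p = 1.32e-05 by edgeR). Tap2 had 92.1, 94.5 and 96.7 CPM in Control and 259, 243 and 237 CPM in TNF. TNF library 1 was the highest and TNF library 3 the lowest of the group for both subunits. The fold of Tap2 was 2.61 (1.38 ± 0.08 SE, adjusted p = 5.09e-06 by edgeR).

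Per transcript length, Tap2 stood above Tap1 in every library. The ratio of Tap1 to Tap2 in TPM (which scales for transcript length as well as library size) was 0.605, 0.619 and 0.679 in Control and 0.741, 0.672 and 0.652 in TNF. The groups overlapped, with means of 0.634 ± 0.0395 and 0.688 ± 0.0469 (SD, n = 3 each), a difference of 0.0540 that has no test. Of 8 other ABCB transporters, the family to which both subunits belong, 3 (37.5%) were called higher and 0 lower. Among all tested genes 16% were called higher and 16.4% lower. The median log2 fold change of the 8 transporters was 0.13. The called ones were Abcb1b (from 17.5 ± 1.54 to 32.9 ± 0.879 CPM), Abcb1a (1.50 ± 0.129 to 2.61 ± 0.311 CPM) and Abcb4 (5.57 ± 0.936 to 9.49 ± 1.60 CPM), pumps of the plasma membrane. Abcb9, a lysosomal peptide transporter, stood at 8.68 ± 1.09 CPM in Control and 7.19 ± 0.0782 CPM in TNF, which did not pass (adjusted p = 0.0964 by edgeR). The log2 fold changes of Tap1 and Tap2 were above the highest of these 8, 0.91, though no test of that difference was made.

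The peptide editors differed in level, and in fold by point estimate, with no test of the folds against each other. Tapbp had 287, 375 and 277 CPM in Control and 821, 747 and 724 CPM in TNF, with Control library 2 above the other Control libraries. Its fold was 2.44 (log2 fold change 1.29 ± 0.14 SE, adjusted p = 0.000168 by edgeR), and without Control library 2 the log2 fold change was 1.44. Tapbpl had 16.0, 18.4 and 16.6 CPM in Control and 59.7, 56.2 and 57.2 CPM in TNF, a narrow spread in both groups. Its fold of 3.39 was the highest point estimate of the 8 genes (1.76 ± 0.08 SE, adjusted p = 1.58e-06 by edgeR).

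Tapbpl remained the scarcer editor. In TPM it stood at 6.06%, 5.40% and 6.58% of Tapbp in Control libraries 1, 2 and 3 and at 7.76%, 8.16% and 8.06% in TNF libraries 1, 2 and 3. The groups did not overlap, and the mean share went from 6.01% ± 0.590 to 7.99% ± 0.207 (SD, n = 3 each; this ratio has no test). The 95% intervals of the 2 fold changes, 1.96 to 3.04 for Tapbp and 2.97 to 3.87 for Tapbpl, overlapped at their ends.

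The trimming enzyme rose least of the 5 by its point estimate. Erap1 had 47.2, 52.9 and 43.3 CPM in Control and 88.6, 109 and 94.9 CPM in TNF. Its fold was 2.04 (log2 fold change 1.03 ± 0.11 SE, adjusted p = 0.00016 by edgeR; 95% interval of the fold 1.71 to 2.43). In TPM the step was smaller, with 43.5, 37.1 and 27.9 in Control and 56.2, 61.6 and 58.9 in TNF, which gave a log2 fold change of 0.71 on log2(TPM + 1) (adjusted p = 0.0105 by limma). The groups did not overlap on that scale either.

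Counts and TPM of Erap1 parted in 2 Control libraries. The ratio of count to TPM stands for the transcript length the authors' tools assigned to a gene, and it was divided here by the median ratio of all genes in the library. For Erap1 it was 0.810, 0.917 and 1.11 in Control and 1.12, 1.08 and 1.11 in TNF, so Control libraries 1 and 2 were the low ones. The SD of its log2 over the 6 libraries was 0.196, higher than in 91.2% of genes, against 0.00831 for Tapbpl and 0.0615 for Tap1. In the RefSeq annotation Erap1 overlaps Cast, the calpain inhibitor, which stood at 296 ± 24.4 CPM in Control and 351 ± 16.7 CPM in TNF and did not pass (adjusted p = 0.0919 by edgeR, 0.0303 by DESeq2). The strand setting of the counting is not given in the sources used here, so reads of the shared stretch could have gone to either gene.

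None of the general chaperones passed the test. Per length, Calr and Pdia3 were the most abundant of the set in Control, while Canx stood beside Tapbp. Calr had 836, 1125 and 900 CPM in Control and 856, 759 and 837 CPM in TNF, and the groups overlapped. Its fold was 0.857 (95% interval 0.689 to 1.07, adjusted p = 0.249 by edgeR). Canx had 366, 454 and 373 CPM in Control and 387, 417 and 432 CPM in TNF, with every TNF value inside the Control range. Its fold was 1.04 (0.865 to 1.24, adjusted p = 0.758 by edgeR), and its sign changed with the scaling (log2 fold change -0.03 with library totals). Pdia3 had 501, 605 and 453 CPM in Control and 400, 444 and 468 CPM in TNF. Its fold was 0.841 (0.684 to 1.03, adjusted p = 0.177 by edgeR). The upper ends of these intervals lie below the 2.04-fold rise of Erap1, and their lower ends, 0.689 for Calr and 0.684 for Pdia3, leave room for a fall.

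Control library 2 was the highest Control library for 6 of the 8 genes, all 3 chaperones among them. Without it the log2 fold changes were -0.09 for Calr, 0.16 for Canx and -0.13 for Pdia3, against -0.22, 0.05 and -0.25 with all libraries, and none was called (adjusted p 0.562, 0.227 and 0.399 by edgeR). In TPM the 3 TNF values of Calr (726, 552 and 700) lay below its Control values (751, 874 and 780), and those of Pdia3 (261, 249 and 301) below 346, 362 and 305. Limma on log2(TPM + 1) did not call them either (adjusted p = 0.318 and 0.170).

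The order of levels per length changed in the upper part. In Control the order by mean TPM was Calr (802), Pdia3 (338), Tapbp (221), Canx (198), Tap2 (68.2), Tap1 (43.4), Erap1 (36.2) and Tapbpl (13.2), and the neighbours Tapbp and Canx, and Tap1 and Erap1, overlapped. In TNF it was Calr (659), Tapbp (535), Pdia3 (270), Canx (190), Tap2 (169), Tap1 (117), Erap1 (58.9) and Tapbpl (42.7), with overlap between Calr and Tapbp and between Canx and Tap2. These overlaps came from TNF library 2, where the 18S gene took 19.8% of TPM. With TPM rescaled without that gene, Calr (750, 689 and 708 in TNF libraries 1, 2 and 3) lay above Tapbp (619, 575 and 551), and Canx (200.2, 209 and 213) above Tap2 (188, 191 and 174), with no overlap. Tapbp thus went from below Pdia3 to above it, without overlap in either group. The TPM ratio of Tapbp to Pdia3 was 0.631, 0.674 and 0.656 in Control and 2.30, 1.85 and 1.81 in TNF.

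**Figure D2:**
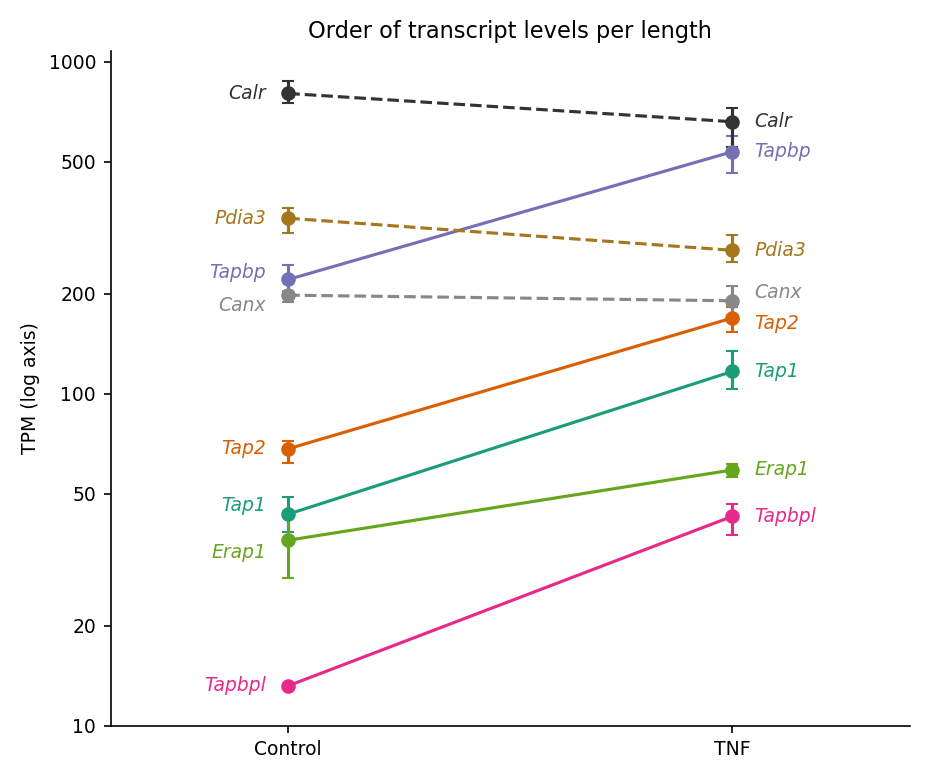
Mean TPM of each gene (y axis, log scale) in Control and TNF (x axis); whiskers run from the lowest to the highest of 3 libraries, solid lines are the dedicated genes and dashed lines the general chaperones. Tapbp crosses Pdia3, going from 221 to 535 TPM, while Calr stays at the top of the order.

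The make-up of the set shifted with it. The 5 dedicated genes summed to 388, 394 and 362 TPM in Control and 1019, 816 and 932 TPM in TNF, and the 3 chaperones to 1287, 1441 and 1286 and to 1180, 969 and 1212 TPM. Dedicated transcripts were 22.2% ± 0.875 of the set in Control and 45.2% ± 1.50 in TNF (SD, n = 3 each). The mean log2 TPM of the dedicated genes minus that of the chaperones went from -2.92 ± 0.11 to -1.41 ± 0.11, a shift of 1.51 toward the dedicated side. The groups did not overlap on either measure, but the division of the genes was made with earlier results of these data known, so no test is given.

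Other genes of the class I pathway were called higher in 15 of 23 cases (65.2%) and lower in 1 (4.35%). The shares among all tested genes were 16% and 16.4%. The median log2 fold change of the pathway list was 0.90. This list was also chosen with earlier results of these data known. Psmb9 rose from 6.76 ± 0.271 to 36.6 ± 4.56 CPM and Psmb8, another immunoproteasome subunit, from 40.6 ± 2.66 to 234 ± 35.8 CPM. Irf1, a transcription factor induced by cytokines, rose from 76.7 ± 8.29 to 414 ± 53.3 CPM (highest adjusted p of these 3 by edgeR, 3.12e-06). The class I heavy chain H2-K1, which the complex loads, rose from 78.4 ± 19.9 to 373 ± 18.1 CPM, and its light chain B2m from 407 ± 110 to 676 ± 75.5 CPM. The heavy chain genes H2-D1 and H2-T23 rose less by fold than H2-K1. H2-D1 went from 169 ± 37.5 to 316 ± 26.2 CPM and H2-T23 from 67.5 ± 2.58 to 99.1 ± 12.5 CPM. Nlrc5, the class I transactivator, rose from 2.99 ± 0.235 to 11.0 ± 2.37 CPM. H2-K1, B2m, H2-D1, H2-T23, Nlrc5 and the next gene, Lnpep, were named after their values were seen. Lnpep, a peptidase of endosomes that can also trim class I peptides, was the gene that fell, from 172 ± 44.2 to 111 ± 10.5 CPM (adjusted p = 0.0246 by edgeR); it was not called without Control library 1, TNF library 1 or TNF library 3, with log2 fold changes of -0.62, -0.57 and -0.63 against -0.64 with all libraries. Without Control library 2 the log2 fold change was -0.45 and the call was kept (adjusted p = 0.0481 by edgeR).

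Other ER chaperone and quality control genes, the class to which Calr, Canx and Pdia3 belong, were measured for 34 of 35 listed. Of these 5 (14.7%) were called higher, 5 (14.7%) lower and 24 in neither direction, shares near the 16% and 16.4% of all tested genes, and the median log2 fold change was 0.02. Ero1a, an oxidase that recharges disulphide isomerases, rose from 56.2 ± 4.93 to 125 ± 9.26 CPM, Txndc11 from 25.7 ± 0.224 to 35.7 ± 0.454 CPM and Creld2 from 29.8 ± 0.678 to 40.8 ± 1.64 CPM. Hspa5, the main ER chaperone BiP, rose from 530 ± 32.6 to 783 ± 8.07 CPM, and Dnajb9, its cochaperone, from 33.8 ± 3.34 to 41.5 ± 1.16 CPM. Those that fell were Sdf4, Fkbp9, Sil1, Ppib and Uggt2, by 0.55, 0.52, 0.47, 0.47 and 0.39 on the log2 scale, and the count of genes that fell was 0 without TNF library 1 and 1 without TNF library 2. The count that rose was 8 without Control library 2. Hspa5, Dnajb9 and those that fell were named after their values were seen.

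**Figure D3:**
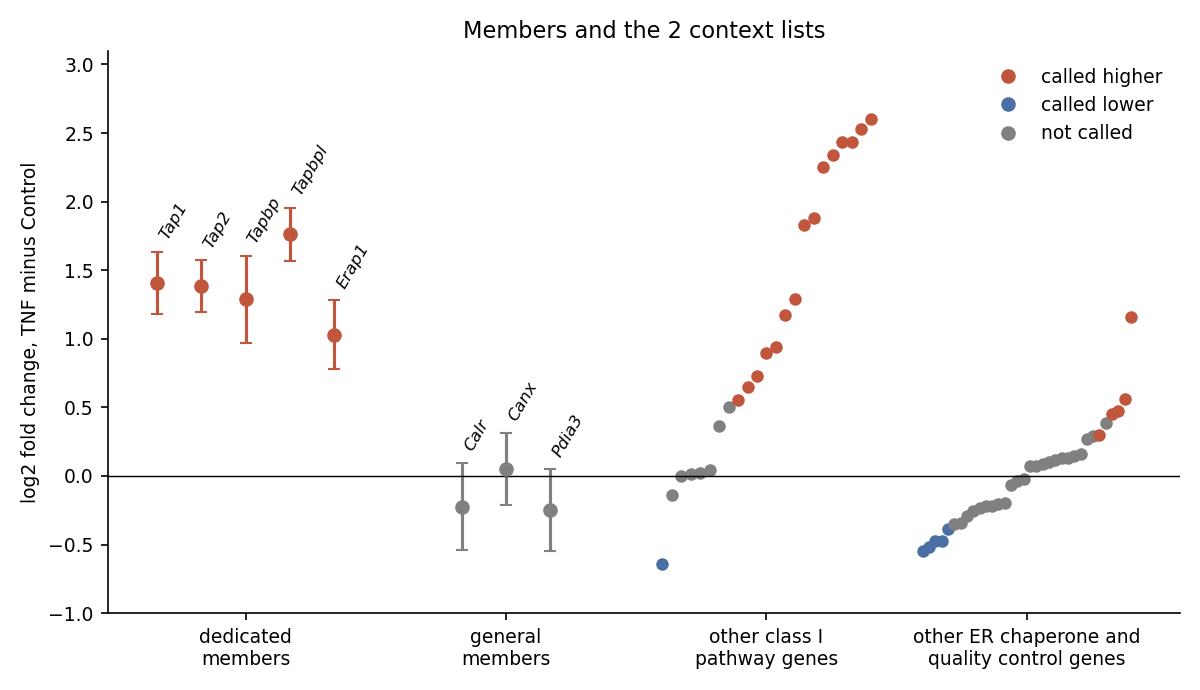
Log2 fold change, TNF minus Control (y axis), of the 8 genes with 95% intervals, and of single genes of the other class I pathway (23) and other ER chaperone and quality control (34) lists, sorted within each list; colours give the call. The 5 dedicated genes lie among the called class I pathway genes, and the 3 general chaperones lie around 0, within the range of the uncalled ER genes.

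Position on the chromosome was compared next for the 5 dedicated genes. In RefSeq order on chromosome 17, Psmb9, Tap1, Psmb8 and Tap2 follow each other, and all 4 rose. On the far side of Psmb9, H2-DMb1 was not called (10.4 ± 3.53 CPM in Control and 7.56 ± 1.82 in TNF). Next to Tap2, H2-Ob was not tested. Beyond it H2-Ab1 was called higher at a very low level, 0.119 ± 0.0574 and 0.419 ± 0.302 CPM (adjusted p = 0.0437 by edgeR). From the shared stretch printed above, Psmb9 rose with a log2 fold change of 2.44 ± 0.11 SE and Tap1 with 1.41 ± 0.10 SE. The TPM ratio of Tap1 to Psmb9 was 4.09, 4.13 and 4.81 in Control and 2.14, 2.09 and 2.28 in TNF, with no overlap. Tap1 thus stayed the more abundant of the pair, at a lower ratio. In mean TPM Tap1 went from 43.4 to 117 and Psmb9 from 9.98 to 53.8. Tapbp lies on the same chromosome, and neither of its nearest neighbours was called. Zbtb22 had 36.1 ± 3.87 and 39.7 ± 2.01 CPM and Rgl2 28.7 ± 0.803 and 26.3 ± 0.629 CPM. Beyond Zbtb22, Daxx was called higher, from 41.3 ± 6.93 to 76.3 ± 8.54 CPM (adjusted p = 0.00143 by edgeR). Pfdn6, beyond Rgl2, was not called.

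Beside Tapbpl on chromosome 6, Vamp1 stood at 10.3 ± 0.966 CPM in Control and 9.75 ± 0.459 CPM in TNF and did not pass (adjusted p = 0.582 by edgeR). Of the nearest genes on each side of the 5 dedicated genes, 7 were tested. By edgeR Psmb9 and Psmb8 were called higher, and the other 5 were not called. Among all tested genes 16% were called higher and 16.4% lower. DESeq2 called 3 of the 7, the third being Cast, and limma-voom called 2. These chromosome neighbours were named after the files were seen.

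**Figure D4:**
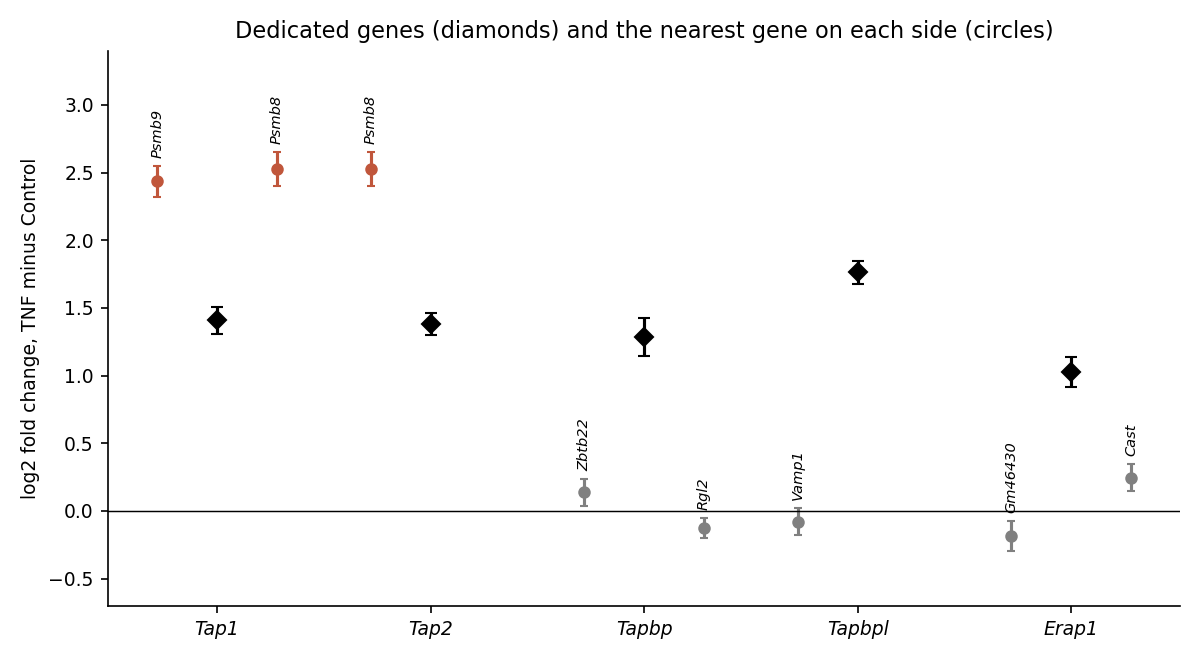
Log2 fold change, TNF minus Control (y axis), of each of the 5 dedicated genes (diamonds) and of the nearest protein-coding gene on each side where tested (circles, red where called higher, grey where not called, by edgeR); whiskers are ± 1 SE. Psmb9 and Psmb8 lie above Tap1 and Tap2 at 2.44 and 2.53, while the neighbours of Tapbp, Tapbpl and Erap1 lie near 0.

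Likeness of pattern was measured as the root mean square distance between log2 CPM profiles over the 6 libraries, each centred on its own mean, among 10529 genes with a mean of at least 5 CPM. Among genes outside the set of 8, the nearest to Tap1 were H2-T22 (0.0436), Sp140 (0.0719), Ttc39c (0.0749), Fmo1 (0.0762) and Sh3tc1 (0.0841). Within the set, its distance to Tap2 was 0.0526, nearer than all of these but H2-T22, and to Tapbp 0.170, to Tapbpl 0.204 and to Erap1 0.269. Seen from Tap2, Apobec3 (0.0428) and Ttc39c (0.0456) were nearer than Tap1. Both were named for Tap2 after their values were seen. H2-T22 is a class I gene of a family with near-identical members, so its reads could be shared. For Tapbpl the nearest were Csf2rb (0.0459), Tgm2 (0.0593), Stxbp6 (0.0755), Rassf4 (0.0810) and Ampd3 (0.0826). For Calr they were Spcs1 (0.0268), a signal peptidase subunit, Smim20 (0.0345), Rab13 (0.0368), Card19 (0.0387) and Mrpl34 (0.0414), and its distance to Pdia3 was 0.124. These distances describe 6 libraries in 2 groups and carry no test.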

How the data were processed

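The authors deposited 2 files per library: expected counts per gene, as whole numbers with no gene column, and TPM with gene names. Per the submitters' processing notes, Trim Galore, STAR, StringTie and Salmon were used with build GRCm39; versions, order and settings are not given in the sources used here. The count files' title line says normalized and their column name raw; totals differ between libraries, so the values were used as counts. Counts were paired with TPM by position within a library: the 260 zeros coincided, and the median SD over libraries of log2(count/TPM), centred per library, was 0.0275, against 0.413 with lines moved by 1.

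The test was edgeR's glmQLFTest (version 4.0.16, R 4.3.3) after filterByExpr, TMM scaling and glmQLFit with group as the only term; it was two-sided, and genes were called at an adjusted p under 0.05. The SE is the absolute log2 fold change over the square root of F, and intervals use it; both are approximate. The procedure was also run on simulated counts, where far fewer genes changed than were called here, so that run does not check the scaling. Alternatives, 18 in all, used other scalings, DESeq2 1.42.0, limma 3.58.1 (voom, or log2 TPM with a pseudocount of 1 or 0.1), other filters, a stricter threshold, the table without the 18S gene, a replicate block, and fewer libraries. The 8 genes and the lists were chosen with earlier results of these data known. Named were the 8 genes, up to 3 called genes per pathway list by smallest adjusted p, the ABCB transporters by call, and the 5 genes nearest in pattern to Tap1, Tapbpl and Calr; chromosome neighbours and promoter motifs were added after the files were seen. Sequences are RefSeq's, build GRCm38.p6, and no coordinates were carried between builds.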

Additional observations from a re-analysis of the deposited data

How the results depend on the processing

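The 5 rises of Tap1, Tap2, Tapbp, Tapbpl and Erap1 kept their direction and call in all 18 alternatives, with 5 of the 8 genes higher and 0 lower in each. Log2 fold changes ran from 1.33 to 1.47 for Tap1, 1.30 to 1.41 for Tap2, 1.21 to 1.46 for Tapbp, 1.62 to 1.85 for Tapbpl and 0.71 to 1.11 for Erap1 (lowest on log2 TPM with a pseudocount of 1). Erap1 was below 2-fold with library totals (0.94), on log2(TPM + 1) (0.71) and on log2(TPM + 0.1) (0.72). It was also below 2-fold without Control library 3 (0.97) and without TNF library 2 (0.94). Calr and Pdia3 stayed uncalled and below 0 (-0.31 to -0.03 and -0.33 to -0.13), and Canx stayed uncalled. The sign of Canx turned with library totals (-0.0270), and with limma on log2(TPM + 1) (-0.0615) and log2(TPM + 0.1) (-0.0618), and over repeats without 1 library it ran from -0.0046 to 0.157. The shift of dedicated against general genes was 1.51 in CPM and 1.45 to 1.57 without 1 library.

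Over all genes, 1612 instead of 2489 were called higher with library totals, 1479 and 1475 on log2 TPM with a pseudocount of 1 and 0.1, and 1587 at an adjusted p under 0.01, where 1534 instead of 2550 were lower. Library totals made 38.5% of calls higher, against 49.4% with TMM factors. Among the 34 ER genes, 5 rose and 5 fell with all libraries; 2 rose with library totals and on both TPM scales, 3 fell on both TPM scales, and 9 rose without Control 2 and TNF 2 together. The count that fell was 0 at an adjusted p under 0.01, and without 1 library 4 to 8 rose and 0 to 5 fell. The fall of Lnpep, 1 gene, became 0 at an adjusted p under 0.01 and ran from 0 to 1 without 1 library. The cause of these changes was not tested, apart from the stricter threshold. With the replicate number as a replicate block, 2 ER genes fell instead of 5, and no call among the 8 genes changed. Libraries of the same number did not deviate together (correlations -0.0125, -0.304 and -0.222), and 0 of 6 libraries correlated best with its own number.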
